A study of Homo sapiens with 20 samples.

Results

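The genes described here are the protein-coding genes whose symbol is ZNF followed by a number, most of them C2H2 zinc finger genes, that were expressed in pancreatic progenitors made from human pluripotent stem cells. A gene was a member when its CPM (reads of the gene scaled to a fixed library total) averaged at least 5 over 16 progenitor libraries. Of 509 such genes listed, 224 (44%) passed and 285 fell below, among 10151 protein-coding genes at or above 5 CPM and 60623 listed genes. The 3 genes ZNF248, ZNF470 and ZNF793 were left out by name, and at 1.45 to 1.64 CPM they were below the limit in any case. Just under the limit were ZNF200 at 4.77, ZNF816 at 4.79 and ZNF550 at 4.8 CPM, and just above it ZNF814 at 5.02, ZNF181 at 5.05 and ZNF329 at 5.06 CPM. The mean took in treated libraries, so a gene that fell fast needed a higher starting level: ZNF200 stood at 10.5 CPM before treatment and ZNF814 at 7.84 CPM.

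All 20 libraries were RNA sequencing libraries from the human embryonic stem cell line MEL1, used with a green fluorescent protein reporter of insulin. The wild type (WT) cells were compared with A5-KO cells, in which CRISPR-Cpf1 had cut the first exon of ALKBH5, the gene of an enzyme that removes the methyl group of N6-methyladenosine (m6A) from mRNA. Pancreatic progenitors (PPs) of each genotype were given actinomycin D (Act D), which stops transcription, at 1 μg per ml for 1, 2 or 3 h or left untreated (0 h), with 2 libraries per genotype and time. Human islet-like organoids (hILOs), the later stage grown from PPs, were untreated, with 2 libraries per genotype. The study calls the paired libraries of the Act D course biological replicates. How their cultures were kept apart was not found in the sources used here, nor was the kind of replicate for the hILO pairs. The p-values therefore measure only the spread between these libraries. The study made the knockout lines A5-KO and A5-KO2 from picked colonies, and the label A5-KO points to the first of them alone. What belongs to that line and what belongs to the loss of ALKBH5 cannot be told apart.

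C2H2 zinc finger proteins read DNA through small zinc-binding fingers joined by a short conserved linker. The largest group carries a KRAB box, which recruits TRIM28 and through it SETDB1 and other chromatin silencers, chiefly to transposable elements. Many of these genes lie in clusters on chromosome 19, and mRNAs of transcription regulators as a class are known for fast turnover.

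A KRAB box was found in 112 members and not in the other 112. On chromosome 19 lay 84 members (37.5%), 60 of them with a KRAB box, against 6.42% of the protein-coding genes at the same level. A SCAN box, a dimerisation domain, was found in 16. The members had a median of 9 fingers and at most 36, and in 3 no finger of the searched pattern was found. At least 1 linker was found in 165 members and in 84 of 9927 other protein-coding genes (0.846%). The coding sequence around the first linker that lies with its window in 1 exon is shown for members that head a comparison below, because the linker marks these genes and its codons decide whether it holds the consensus in which m6A is found (A, G or T, then A or G, then AC, then A, C or T). Each window is 30 bases of a coding exon in GRCh38, read 5′ to 3′ on the strand of the gene, with the 15 bases of the linker in capitals.

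ZNF627 (chr19:11617149-11617178, plus strand): agtcacACTGGAGAGAAACCTtatgaatgc

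ZNF664 (chr12:124012466-124012495, plus strand): gttcatACAGGTGAGAAACCGtatgtctgt

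ZNF24 (chr18:35337412-35337441, minus strand): gtccacACTGGAGAAAAACCTtacaaatgt

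ZNF114 (chr19:48286597-48286626, plus strand): attcacACTGGAGAGAAACCGtatgaatgt

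ZNF317 (chr19:9160372-9160401, plus strand): atccacACCGGGGAGAAGCCTtacgagtgc

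ZNF574 (chr19:42080152-42080181, plus strand): acacacACAGGGGAGCGGCCCttcccctgc

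ZNF784 (chr19:55622330-55622359, minus strand): ttgcacACGGGGGAGCGGCCCtaccgctgc

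ZNF143 (chr11:9497701-9497730, plus strand): actcatACAGGAGAAAAGCCAtatcggtgt

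Linkers were found by their peptide, and an AAA codon before its proline codon meets the consensus by itself. The count beside other windows is therefore no test, and m6A was not measured in these libraries. Searched on the coding strand only, with overlapping matches counted, the consensus was met in 569 of 912 member linkers (62.4%). It was met in 20.4% of all in-frame windows of 15 bases in the other protein-coding genes and 21.8% of those in the members. It was in all 6 linkers of ZNF627, both of ZNF24 and both of ZNF114, in 4 of 5 of ZNF664, in 2 of 7 of ZNF317, in 1 of 4 of ZNF143, in none of 5 of ZNF574 and in none of 3 of ZNF784. Over the whole coding sequence the consensus was about as dense in members, with a median of 21 matches per kb, as in the other protein-coding genes, with 20.0. Its form AAAC followed by A, C or T had a median of 6.28 per kb in members, 8.54 in those with a KRAB box and 3.14 in the other genes. The form GGAC followed by A, C or T had medians of 2.71 and 3.94 per kb, so the members held more of one form and less of the other. The median 3′ untranslated region was 2040 bases in members and 1414 bases in the others, and ATTTA, the core of AU-rich elements, had a median of 1.86 per kb there in both.

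The PP libraries held 30516384 to 35206514 reads each. In PPs at 0 h the WT libraries held ALKBH5 at 149 and 172 CPM and the A5-KO libraries at 19.1 and 18.8 CPM, and in hILOs at 78.8 and 81.9 against 4.16 and 3.42 TPM (the same scaling after division by transcript length). Of 9 progenitor markers 8 averaged at least 1 CPM in PPs, and all 8 endocrine markers averaged at least 1 TPM in hILOs. Markers of other lineages moved with genotype, though not all of them. The summed hepatic markers (6 of 6 detected) were at 767 to 768 CPM in WT and 1619 to 1629 CPM in A5-KO PPs at 0 h. Most of this was AFP (563 and 551 against 1343 and 1294 CPM), and APOA2 did not rise (63.1 and 74.4 against 57.3 and 71.4 CPM). In hILOs the hepatic sum was at 19225 to 19583 and 34405 to 34719 TPM. There APOA1 was about level (3029 and 3141 against 3155 and 2997 TPM) and FGB went the other way (1362 and 1394 against 737 and 748 TPM). The summed mesenchymal markers (4 of 5 detected) were at 108 to 117 CPM in WT and 190 to 195 CPM in A5-KO PPs at 0 h. In hILOs this sum was at 9.74 to 17.2 and 44.4 to 49.0 TPM. Of these markers COL1A2 did not rise in PPs at 0 h (69.0 and 73.9 against 64.7 and 68.7 CPM). The intestinal sum (4 of 4) was at 589 to 617 and 792 to 817 CPM in PPs at 0 h. The pluripotent sum (2 of 4) was at 118 to 122 and 232 to 247 CPM, nearly all of it LIN28A, with POU5F1 and NANOG at or near 0 in every PP library at 0 h. The summed progenitor markers were at 1004 to 1259 CPM at 0 h and 437 to 452 CPM at 3 h in WT, and at 928 to 1034 CPM and then 141 to 158 CPM in A5-KO. The part of these cells in the results was not tested, and in bulk RNA fewer cells of a type and less RNA per cell cannot be told apart. Libraries of a pair differed most in WT PPs at 2 h, where replicate 1 was lower than replicate 2 for 197 of 224 members, with a median distance of 0.47 on the log2 scale against 0.13 to 0.27 at the other times and genotypes.

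The first question was how far the members fell while transcription was blocked. In the first hour most of them fell in both genotypes. In WT PPs 142 of 224 members (63.4%) were called lower at 1 h than at 0 h and none higher (limma, Benjamini-Hochberg adjusted p below 0.05), where 21.3% of all 13620 genes tested were called lower and 1.62% higher. In A5-KO PPs 158 members (70.5%) were called lower and 5 higher, against 26.7% and 7.37% of all genes. The count of 142 was 89 without WT replicate 1 at 0 h, and that of 158 was 100 without A5-KO replicate 1 at 0 h. Of these, 131 were called in both genotypes, which is 92.3% of the WT list and 82.9% of the A5-KO list. The same overlap over all genes is not given and both lists come from 1 fit, so it is not read as a trait of the members. The median first-hour change was −0.80 in WT and −0.85 in A5-KO on the log2(CPM + 0.1) scale, beside −0.13 and −0.15 over all genes. Scaling by median-of-ratios size factors moved the medians of all genes to 0.02 and 0.01 and left the members 0.67 and 0.69 below them. Under that scaling the share of higher calls among all called genes went from 7.07% to 32.8% in WT and from 21.6% to 45.6% in A5-KO. All values are relative to the library total and not to the amount of RNA per cell.

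**Figure D1:**
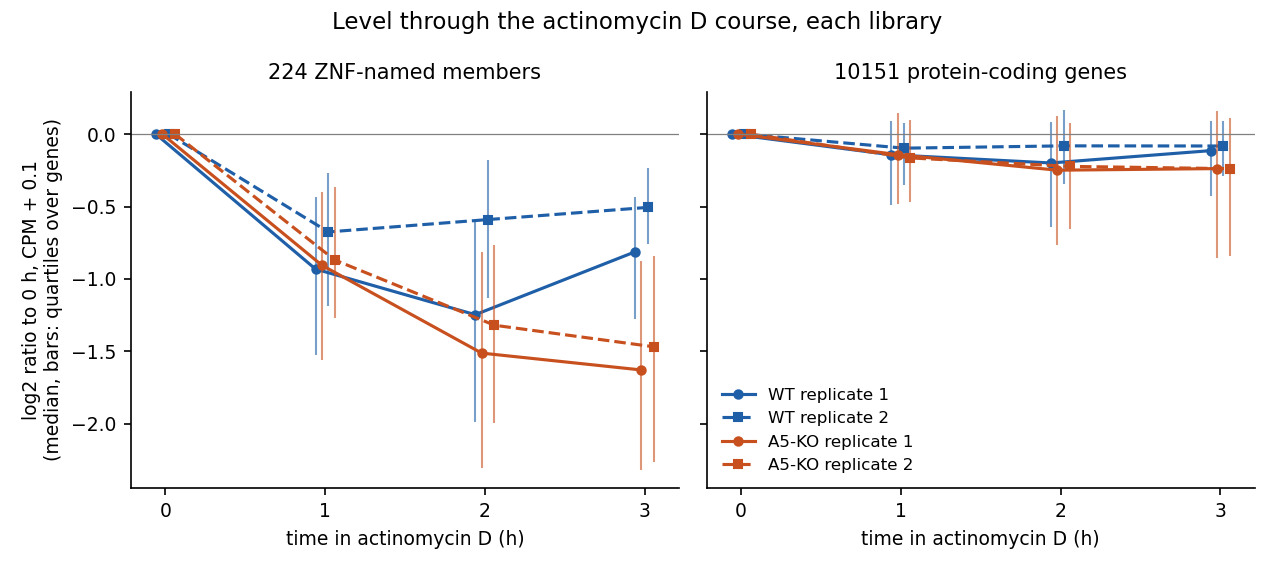
Median log2 ratio to 0 h of the same replicate number (y axis) against hours in Act D (x axis) for the 224 members (left) and the 10151 protein-coding genes at 5 CPM or more (right), with bars for the quartiles over genes. All 4 series of members fall in the first hour. The A5-KO series go on to −1.63 and −1.47 at 3 h. The WT series stand at −0.93 and −0.68 at 1 h and −1.25 and −0.59 at 2 h. At 3 h the WT series are back at −0.81 and −0.51, above their values at 1 h.

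The deepest first-hour falls in WT were those of ZNF574, ZNF526, ZNF703, ZNF551 and ZNF281. ZNF281, a regulator of pluripotency genes, went in WT from 60.5 and 41.6 CPM at 0 h to 7.09 and 6.80 CPM at 1 h, a log2 change of −2.83 ± 0.38 (SE, adjusted p = 8.89e-05, limma). In A5-KO it went from 61.7 and 41.2 CPM to 7.57 and 7.45 CPM, a change of −2.73 ± 0.38 (adjusted p = 0.000125, limma). The groups at 0 h and 1 h were far apart in both genotypes. ZNF703, a developmental co-repressor of the NET family in which no classical finger was found, fell from 226 and 163 to 21.8 and 27.6 CPM in WT and from 183 and 151 to 33.5 and 27.6 CPM in A5-KO. ZNF574, which has 18 fingers and no KRAB box, fell from 50.9 and 36.7 to 4.23 and 5.04 CPM in WT (log2 change −3.20 ± 0.41). ZNF526 changed by −3.02 ± 0.41 and ZNF551, a KRAB member, by −2.90 ± 0.39 in WT. In A5-KO the list was headed by ZNF367, which went from 23.7 and 19.4 to 2.16 and 1.52 CPM (−3.49 ± 0.28), and by the KRAB member ZNF627, which went from 22.2 and 15.2 to 1.93 and 1.90 CPM (−3.20 ± 0.32), followed by ZNF551, ZNF574 and ZNF689.

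Not every member fell. The 5 called higher at 1 h in A5-KO were ZNF580 (0.63 ± 0.17), ZNF358 (0.50 ± 0.17), ZNF385A (0.42 ± 0.13), ZNF428 (0.40 ± 0.15) and ZNF692 (0.40 ± 0.14), none of which has a KRAB box. These calls rested on single libraries: none of the 5 was called without A5-KO replicate 1 at 0 h. The number of members called higher was 3 without A5-KO replicate 1 at 1 h or either A5-KO replicate at 2 h and 2 without A5-KO replicate 2 at 1 h or either WT replicate at 1 h. ZNF580 was at 28.2 and 32.2 CPM at 0 h and 44.7 and 48.6 CPM at 1 h in A5-KO, and at 27.5 and 28.1 and then 30.4 and 34.9 CPM in WT, where it was not called. ZNF580, ZNF358 and ZNF428 share 15.6%, 34.1% and 32.1% of their exon bases with another annotated gene, whose reads cannot be told apart from theirs without strand, and ZNF385A and ZNF692 share none. ZNF664, the member with the highest mean level, was at 178 and 170 CPM at 0 h and 171 and 198 CPM at 3 h in WT, and at 208 and 184 and then 210 and 220 CPM in A5-KO. ZNF395, the next by level, was at 168 and 159 and then 162 and 157 CPM in WT. The other members with the highest means, ZNF207, ZNF24 and ZNF146, were all called lower in the first hour in both genotypes. ZNF24, a SCAN member, went from 199 and 170 to 87.4 and 85.2 CPM in WT and from 213 and 165 to 88.6 and 73.0 CPM in A5-KO.

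No member was called different between genotypes in the size of its first-hour change (limma; 4 lower and 1 higher at an unadjusted p below 0.05; edgeR called none and DESeq2 called 1), where 0% of all genes were called lower and 0.25% higher. Counts at an unadjusted p, here and below, are of members alone, and the shares of all genes are of adjusted calls. The median difference in first-hour change was −0.05 over the members and −0.01 over all genes. The differences furthest below 0 were those of ZNF367 (−1.26 ± 0.39, adjusted p = 0.348, limma), ZNF765 (−0.86 ± 0.31, adjusted p = 0.453) and ZNF714 (−0.72 ± 0.22, adjusted p = 0.348). Those furthest above 0 were of ZNF784 (0.71 ± 0.47, adjusted p = 0.717), ZNF205 (0.71 ± 0.42, adjusted p = 0.681) and ZNF579 (0.62 ± 0.35, adjusted p = 0.673).

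From 1 to 3 h the genotypes parted. In WT PPs no member was called in either direction (limma; 2 lower and 38 higher at an unadjusted p below 0.05; edgeR called none lower and 1 higher, and DESeq2 called 1 lower and 4 higher), with 0.0954% of all genes called lower and 0.683% higher. The lowest WT changes were those of ZNF711 (−0.36), ZNF385A (−0.23) and ZNF496 (−0.23) and the highest those of ZNF526 (1.01), ZNF551 (0.98) and ZNF670 (0.95), with adjusted p from 0.301 to 0.870. In A5-KO PPs 111 members (49.6%) were called lower and 1, ZNF664, higher (0.36 ± 0.09, adjusted p = 0.00665, limma), against 23.4% and 4.5% of all genes (16.1% of the called genes higher, and 35.2% under median-of-ratios scaling). The difference between the genotypes was called lower in A5-KO for 103 members (46.0%) and higher for none, against 18.3% and 2.25% of all genes and 21.8% lower among protein-coding genes at 5 CPM or more. The median 1 to 3 h change of the members was 0.21 in WT and −0.59 in A5-KO, so the difference held a rise in WT beside the fall in A5-KO. The median difference was −0.81, beside −0.20 over all genes. In these hours ALKBH5 itself fell in WT, from 133 and 125 CPM to 48.3 and 33.7 CPM (−1.67 ± 0.16, adjusted p = 0.000247, limma). In A5-KO it was at 11.1 and 10.1 and then 8.98 and 7.43 CPM. The hepatic sum in WT was at 767 to 768 CPM at 0 h and 1152 to 1312 CPM at 3 h. In A5-KO that sum was at 1619 to 1629 and then 1895 to 2000 CPM. The part of these changes in the late difference was not tested. Median-of-ratios scaling moved the median difference of all genes to −0.02 and that of the members to −0.64. Of all genes called for this difference 10.9% were higher in A5-KO, and 29.7% under that scaling. The count of 111 was 57 without A5-KO replicate 2 at 3 h, and ZNF664 was not called without A5-KO replicate 2 at 1 h or at 3 h. The count of 103 was 54 without A5-KO replicate 2 at 3 h, 57 without WT replicate 1 at 1 h and 64 without WT replicate 2 at 3 h.

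**Figure D2:**
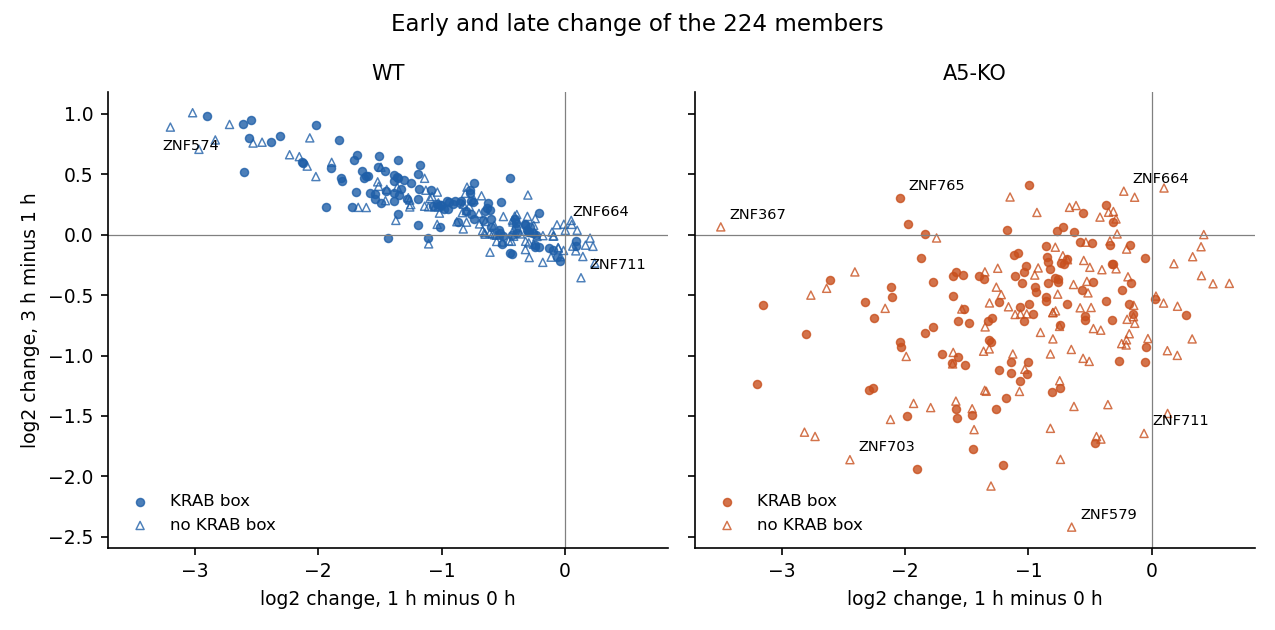
Log2 change from 1 to 3 h (y axis) against log2 change in the first hour (x axis) for each member in WT (left) and A5-KO (right), with filled circles for members with a KRAB box and open triangles for those without. The WT points lie around a median of 0.21 on the y axis and the A5-KO points around −0.59; both axes use the 1 h libraries, so the slant of the WT points is not read as a relation.

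Among called members whose replicates did not overlap between genotypes, the largest differences were those of ZNF579 (−2.73 ± 0.35, adjusted p = 0.000551, limma), ZNF703 (−2.57 ± 0.55, adjusted p = 0.00462), ZNF784 (−2.56 ± 0.47, adjusted p = 0.00198), ZNF574 (−2.53 ± 0.58, adjusted p = 0.00672) and ZNF281 (−2.45 ± 0.53, adjusted p = 0.00497). ZNF579 was at 10.1 and 10.3 CPM at 1 h and 13.5 and 11.8 CPM at 3 h in WT. In A5-KO it was at 15.7 and 16.7 CPM at 1 h and 2.44 and 3.54 CPM at 3 h. The 3 h libraries of the genotypes were thus well apart, while the A5-KO libraries at 1 h were above those of WT. ZNF703 was at 37.9 and 42.3 CPM at 3 h in WT and at 10.7 and 6.45 CPM in A5-KO. ZNF784 was at 3.22 and 5.18 CPM at 3 h in WT and at 1.19 and 0.949 CPM in A5-KO, and ZNF281 at 13.4 and 10.8 against 3.24 and 1.61 CPM. In each of these members the pair of A5-KO libraries at 3 h lay below the pair of WT libraries.

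Other members that fell after the first hour in A5-KO were the KRAB members ZNF92 and ZNF317. ZNF92 went from 8.77 and 8.33 CPM at 1 h to 2.53 and 1.83 CPM at 3 h in A5-KO (−1.94 ± 0.30, adjusted p = 0.000301, limma), and in WT from 7.01 and 9.66 to 7.55 and 16.7 CPM. ZNF317 went from 24.3 and 19 to 5.71 and 5.60 CPM in A5-KO (−1.91 ± 0.20) and from 18.9 and 21.8 to 21.1 and 29.1 CPM in WT. ZNF711, an X-linked gene tied to intellectual disability, showed the late fall by itself: its first-hour changes were 0.13 ± 0.12 in WT and −0.06 ± 0.12 in A5-KO, and neither was called. From 1 to 3 h it went from 65.6 and 62.5 to 48.0 and 52.1 CPM in WT (−0.36 ± 0.12) and from 56.7 and 53.2 to 18.3 and 16.7 CPM in A5-KO (−1.64 ± 0.12, adjusted p = 4.31e-06). The opposite case was ZNF765, a KRAB member that fell in the first hour in both genotypes and was at 3.97 and 2.89 CPM at 1 h and 4.12 and 4.30 CPM at 3 h in A5-KO (0.30 ± 0.22, adjusted p = 0.338).

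**Figure D3:**
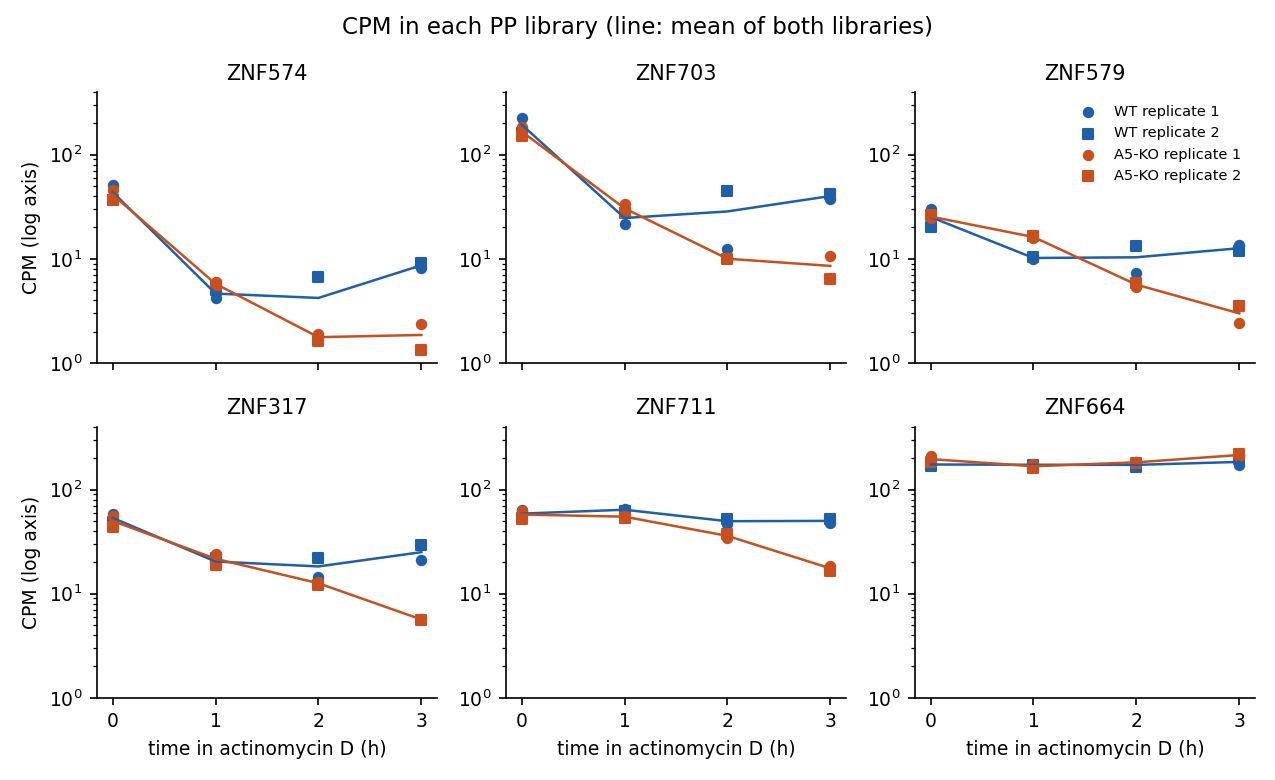
CPM on a log axis (y) against hours in Act D (x) for 6 members, with 1 point per library and a line through the mean of both libraries of a genotype. At 3 h the A5-KO points lie below the WT points for ZNF574, ZNF703, ZNF579, ZNF317 and ZNF711, and above them for ZNF664, which was at 210 and 220 CPM in A5-KO and 171 and 198 CPM in WT.

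A single slope over 0 to 3 h gave fewer differences between the genotypes than the change from 1 to 3 h. In A5-KO PPs 189 members (84.4%) were called as falling, against 37.1% of all genes, and none as rising, against 7.44% (16.7% of the called genes rising, and 46.7% under median-of-ratios scaling). The steepest A5-KO slopes were those of ZNF574 (−1.5 ± 0.31 log2 units per h), ZNF703 (−1.45 ± 0.27), ZNF627 (−1.44 ± 0.31), ZNF281 (−1.44 ± 0.27) and ZNF92 (−1.29 ± 0.20). In WT none was called in either direction by limma, edgeR or DESeq2. By limma 0.11% and 0.132% of all genes were called falling and rising (54.5% of the called genes rising, and 70% under median-of-ratios scaling). At an unadjusted limma p below 0.05, 75 members were falling and none rising, with no share of all genes at that threshold set beside them. The lowest WT slopes were those of ZNF574 (−0.73 ± 0.31), ZNF703 (−0.68 ± 0.27) and ZNF281 (−0.64 ± 0.27) and the highest those of ZNF276 (0.09 ± 0.07), ZNF219 (0.07 ± 0.05) and ZNF580 (0.07 ± 0.08), with adjusted p from 0.354 to 0.732. The slope was lower in A5-KO than in WT for 216 of 224 members (96.4%), beside 69.0% of protein-coding genes at 5 CPM or more. Both A5-KO replicate slopes lay below both WT slopes for 178 members (79.5%). The share was 49.0% of protein-coding genes at 5 CPM or more and 45.3% of all genes tested, which averaged at least 1 CPM. Each replicate slope was taken against the 0 h library of the same number, a pairing by label alone. The difference of slopes was called for 12 members (5.36%), all lower in A5-KO, against 2.61% of all genes lower and 0.0661% higher. Blocking on the replicate number left 0 of the 12. For the settings that follow no share of all genes is given, so they show only how the number of slope calls depends on the setting. The count ran from 0 to 45 when 1 library was left out (45 without WT replicate 1 at 2 h, 44 without WT replicate 1 at 0 h) and was 126 from the 0 and 3 h libraries alone.

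The 12 were headed by ZNF579, with a difference of −0.78 ± 0.17 log2 units per h (adjusted p = 0.0409, limma), ZNF48 (−0.71 ± 0.13), ZNF317 (−0.66 ± 0.17), ZNF747 (−0.56 ± 0.11) and ZNF143 (−0.55 ± 0.14). ZNF143, a general activator that binds promoters and chromatin loop anchors, was at 23.7 and 21.3 CPM at 0 h and 13.5 and 12.2 CPM at 3 h in WT, and at 27.8 and 20.5 and then 4.18 and 4.93 CPM in A5-KO. ZNF48 was at 16.7 and 13.1 and then 10.8 and 9.16 CPM in WT, and at 21.3 and 20.6 and then 3.24 and 3.51 CPM in A5-KO. Of these genes ZNF747 shares 47.8% of its exon bases with another gene and ZNF48 10.2%. The others of the 12 were ZNF672, ZNF584, ZNF711, ZNF280C, ZNF362, ZNF706 and ZNF768.

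Expressed as a half-life relative to the library total, from a line through the 0 h value, the median over the members was 3.27 h in WT (2.42 and 4.42 h by replicate) and 1.74 h in A5-KO (1.63 and 1.75 h). Over all protein-coding genes at 5 CPM or more it was 22.7 h and 10.8 h. From the 0 and 1 h libraries alone the medians of the members were for WT 1.25 h and for A5-KO 1.18 h, and from 0 and 3 h alone 4.95 h and 2.00 h. The shortest were those of ZNF627 (0.963 h in WT, 0.556 h in A5-KO), ZNF574 (0.808 h and 0.558 h), ZNF281 (0.921 h and 0.590 h) and ZNF703 (0.886 h and 0.597 h). In 13 members no fall was fitted in WT, and in 8 none in A5-KO. From 1 to 3 h the WT members rose at the median (0.21 on the log2 scale). A single line therefore did not describe the WT course, and a WT half-life from it is no plain decay rate.

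Members with a KRAB box had the shorter medians, in WT 2.56 h and in A5-KO 1.47 h, against 3.70 h and 1.91 h without it. The medians also went down with the number of fingers, from 5.78 h and 2.98 h with 0 to 4 fingers (45 members) through 2.88 h and 1.63 h with 5 to 9 (75) to 2.65 h and 1.5 h with 10 or more (104). On chromosome 19 they were 2.51 h and 1.48 h, and elsewhere 3.57 h and 1.82 h. These splits are not independent: KRAB members had a median of 11 fingers and the others 7. Of the 84 members on chromosome 19, 60 had a KRAB box. By replicate the WT medians overlapped, at 2.04 and 3.31 h with a KRAB box and 2.90 and 5.36 h without. In A5-KO they did not, at 1.37 and 1.56 h against 1.85 and 2.13 h. In the first hour of WT 79 of 112 KRAB members (70.5%) and 63 of 112 others (56.2%) were called lower. The 1 to 3 h difference between genotypes was called lower in 51 KRAB members (45.5%) and 52 others (46.4%), so the late difference was about as frequent in both. It was called in 20 of 45 members with 0 to 4 fingers (44.4%), 35 of 75 with 5 to 9 (46.7%) and 48 of 104 with 10 or more (46.2%). In the 107 members that share no exon base with another gene it was called in 55 (51.4%), and among ZNF-named genes chosen by a mean of at least 5 CPM at 0 h alone in 41.5%.

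Other C2H2 families were described in the same way. Among those named by symbol at the same level, the 1 to 3 h difference was called lower in A5-KO in 13 of 29 ZBTB genes (44.8%), 3 of 9 ZFP genes, 2 of 6 ZSCAN genes, 2 of 6 ZKSCAN genes and 6 of 10 KLF genes. Their median half-lives ran, for WT and A5-KO, from 2.05 h and 1.14 h for the KLF genes to 3.57 h and 1.77 h for the ZFP genes. Over 25 genes through which KRAB proteins silence chromatin the medians were 15.0 h in WT (8.37 and 25.5 h by replicate) and 4.53 h in A5-KO. These were longer than those of the members but shorter than the 22.7 h and 10.8 h of all protein-coding genes at 5 CPM or more. In 7 of the 25 no fall was fitted in WT and in 4 none in A5-KO, and the 25 include EHMT2, which was near 0 in PPs. TRIM28, the co-repressor that binds the KRAB box, was at 531 and 517 CPM at 0 h and 612 and 459 CPM at 3 h in WT and at 538 and 618 and then 612 and 593 CPM in A5-KO, and its 1 to 3 h difference was −0.16 ± 0.18 (adjusted p = 0.58, limma). SETDB1, the histone H3 lysine 9 methyltransferase it recruits, differed by −0.28 ± 0.22 (adjusted p = 0.408). Of 24 partners tested (EHMT2, at 0.0703 CPM, was not), 6 (25%) were called lower in A5-KO for this difference and 1 (4.17%), the chromatin remodeler CHD3, higher. These shares are close to the 21.8% and 2.67% of protein-coding genes at 5 CPM or more. RESF1, a factor in retroelement silencing, had a difference of −1.60 ± 0.30 (adjusted p = 0.00213, limma), ATF7IP, which stabilises SETDB1, of −1.46 ± 0.30 and TRIM24 of −1.45 ± 0.21.

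Members with known roles outside KRAB silencing were described as a list of their own, written with earlier results of these data in view. Of 19 such members 15 (78.9%) were called lower in the first hour in WT, 15 in A5-KO and 12 (63.2%) for the 1 to 3 h difference. The shares were 63.4%, 70.5% and 46.0% of all members and 21.3%, 26.7% and 18.3% of all genes. ZNF622, which acts in ribosome assembly, was at 18.8 and 22.9 CPM at 1 h and 24.5 and 24.4 CPM at 3 h in WT, and at 23.6 and 32.4 and then 8.95 and 8.28 CPM in A5-KO (difference −1.91 ± 0.27, adjusted p = 0.000714, limma). ZNF598, the ubiquitin ligase of stalled ribosomes, had a difference of −0.71 ± 0.23, and ZNF207, a spindle checkpoint factor, of −0.89 ± 0.14. ZNF148, an activator of many promoters, had a difference of −1.57 ± 0.27. All 4 of these passed the test. Of 7 members known as silencers of repeats or imprints or as prototypes of the KRAB class, 5 (71.4%) were called lower in the first hour in WT and 4 (57.1%) for the 1 to 3 h difference, close to the shares of all members. ZNF91, which silences SVA elements and has 31 fingers, was at 21.3 and 23.0 CPM at 3 h in WT and 10.7 and 9.23 CPM in A5-KO (difference −1.14 ± 0.23, adjusted p = 0.0032, limma). ZNF445, a keeper of imprints, had a difference of −0.29 ± 0.31 (adjusted p = 0.553) and ZNF331, itself imprinted, of 0.22 ± 0.27 (adjusted p = 0.612), and neither was called.

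The second question was whether the steady level of the members differed between the genotypes. In PPs at 0 h 1 member of 224 was called higher in A5-KO and none lower (limma, adjusted p below 0.05 and over 1.5-fold; 4 lower and 16 higher at an unadjusted p below 0.05), against 1.57% and 1.13% of 13911 genes. This was ZNF114, a KRAB member, at 19.3 and 14.3 CPM in WT and 40 and 30.5 CPM in A5-KO, a log2 difference of 1.03 ± 0.17 (adjusted p = 0.0107, limma). By 3 h of Act D it was at 5.70 and 11.6 CPM in WT and 3.44 and 2.34 CPM in A5-KO, so the order of the genotypes had turned. Both A5-KO libraries were below both WT libraries for 25 members (11.2%), against 20.8% of all genes, and above them for 47 (21%), against 29%. The median difference at 0 h was 0.04 over members and 0.03 over all genes. The 3 genes left out by name differed at 0 h: ZNF248 was at 5.83 and 5.95 CPM in WT and at 0 in both A5-KO libraries, ZNF793 at 5.25 and 4.86 against 0.124 and 0.0879 CPM, and ZNF470 at 5.60 and 5.92 against 0.433 and 0.732 CPM, and all 3 were called lower (adjusted p from 6.67e-05 to 0.000377, limma).

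In hILOs the median level of the members was 8.10 and 8.67 TPM in the WT libraries and 7.78 and 7.58 TPM in the A5-KO libraries, beside 21.7, 21.6, 20.7 and 19.9 TPM for protein-coding genes at 5 CPM or more in PPs. Of 217 members tested, 3 were called lower in A5-KO and none higher (1.38%, against 4.09% and 2.7% of 17300 genes; 39 lower and 1 higher at an unadjusted p below 0.05). ZNF532 had 7.93 and 9.96 TPM in WT against 3.12 and 2.60 TPM in A5-KO (log2 difference −1.36 ± 0.18, adjusted p = 0.0209, limma). ZNF853 was at 10.5 and 12.6 against 6.30 and 5.57 TPM (−0.85 ± 0.14, adjusted p = 0.0349), and ZNF711 at 65.8 and 59.9 against 40.4 and 33.6 TPM (−0.75 ± 0.11, adjusted p = 0.0278). The libraries of the genotypes did not overlap in these 3 members, and without any 1 of the 4 libraries none of them was called. Both A5-KO libraries were below both WT libraries for 102 of 224 members (45.5%), against 37.1% of all genes, and above them for 17 (7.59%), against 24.3%. The median difference was −0.15 over the members and −0.06 over all genes. Beside this, the summed islet endocrine markers (8 of 8 detected) were at 34563 to 36882 TPM in WT hILOs. In A5-KO hILOs they were at 26534 to 27745 TPM. The markers did not all move together. INS was at 13033 and 12978 against 7605 and 7606 TPM, and CHGA, the largest, at 18470 and 20798 against 18215 and 17011 TPM. NEUROD1 (208 and 209 against 352 and 350 TPM) and ISL1 (107 and 108 against 123 and 121 TPM) went the other way. The part of these markers in the result was not tested.

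**Figure D4:**
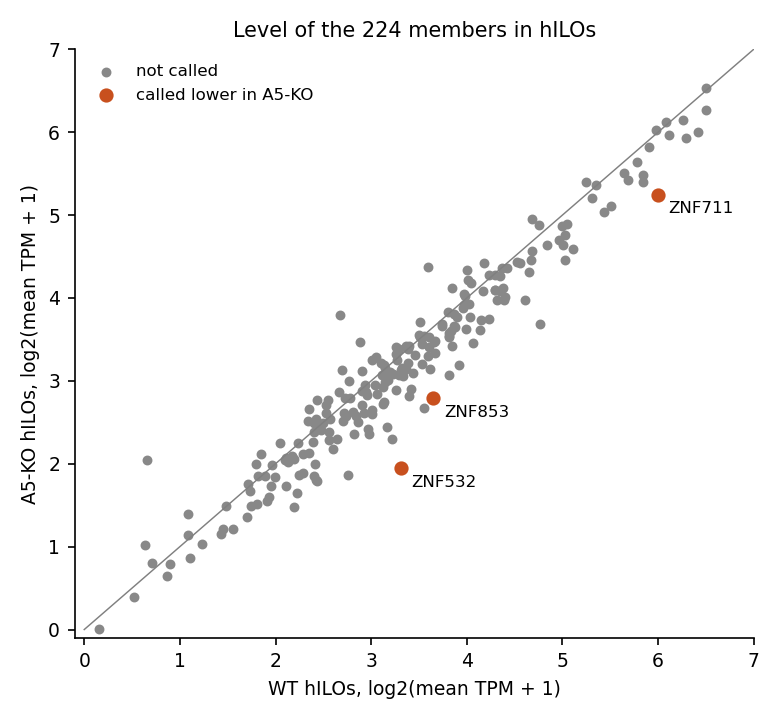
Mean TPM of 2 A5-KO hILO libraries (y) against mean TPM of 2 WT libraries (x), both as log2(mean TPM + 1), for the 224 members, with a line of equal level. The 3 coloured points, ZNF532, ZNF853 and ZNF711, were called lower in A5-KO, by −1.36, −0.85 and −0.75.

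Of the 3 members lower in A5-KO hILOs, ZNF711 was also among the 12 called for the slope difference. ZNF579 was at 14.6 and 15.1 TPM in WT hILOs and 11.5 and 11.2 TPM in A5-KO hILOs (−0.36 ± 0.09, adjusted p = 0.075, limma). ZNF703 was at 55.8 and 57.3 against 44.4 and 42.9 TPM (−0.37 ± 0.06, adjusted p = 0.0284), below the 1.5-fold limit. ZNF114, the member higher in A5-KO PPs, was at 7.81 and 6.74 against 8.57 and 8.95 TPM and was not called (0.24 ± 0.13, adjusted p = 0.278). The highest mean levels in WT hILOs were those of ZNF207 (83.6 and 95.6 TPM), ZNF664 (88.2 and 90.9 TPM) and ZNF428 (88.6 and 80.8 TPM). Within WT the ranges of neighbours in this order overlapped. In A5-KO hILOs ZNF664 was at 94.7 and 88.6 TPM, overlapping its WT libraries. ZNF207 (78.6 and 73.0 TPM) and ZNF428 (62.5 and 64.1 TPM) were below both of their WT libraries. ZNF428 passed the test (−0.41 ± 0.06, adjusted p = 0.0302, limma) but not the 1.5-fold limit, and ZNF207 passed neither.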

How the data were processed

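The PP values are CPM over genes with ERCC spike-ins removed, and the hILO values TPM, both as the authors deposited them, 1 library per file; reads were trimmed with fastp, aligned to GRCh38 with HISAT2 2.1.0 and, for TPM, quantified with StringTie. The counter and annotation release were not given in the sources used here. Whole reads were recovered from the CPM (100% of values within 0.01 of a whole read). TPM hold no depth. Identifiers were matched to GENCODE release 44 (60369 of 60623 in PPs, 60370 of 60624 in hILOs), of which coding sequences gave KRAB boxes (at least 7 of 9 conserved residues), SCAN boxes (8 of 10), fingers and linkers. Levels were tested with limma 3.58.1 (trended eBayes, Benjamini-Hochberg adjusted) on log2(CPM + 0.1) for Act D and log2(value + 1) for genotype, with a filter at a mean of 1; a fold change on this scale understates that of low genes. All 16 PP libraries shared 1 fit of Act D. Fits were tested on simulated data. With 2 libraries against 2, an exact permutation test of a single gene cannot go below p = 0.33, so calls rest on the spread pooled over genes. Alternatives were edgeR 4.0.16 and DESeq2 1.42.0 on recovered reads, other scalings, filters, pseudocounts, time points and left-out libraries. Half-lives are 1 divided by the fitted slope, without the study's spike-in conversion. Slopes and half-lives by replicate use the 0 h library of the same number, although the numbers did not pair the libraries. In each comparison up to 5 called members per direction whose libraries did not overlap are named, or the 3 furthest each way where none was called, with the 5 highest, the 6 at the limit and examples from lists. Members, lists and rules were chosen with earlier results of these data known.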

Additional observations from a re-analysis of the deposited data

Results flagged for a closer look

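The values below belong to members for which a test of the difference between the genotypes itself passed (limma, Benjamini-Hochberg adjusted p below 0.05). That test passed for 103 members from 1 to 3 h and for 12 for the slope. Those named had the largest differences among called members whose replicates did not overlap between the genotypes. For the change from 1 to 3 h, A5-KO minus WT, these were ZNF579 at −2.73, ZNF703 at −2.57, ZNF784 at −2.56, ZNF574 at −2.53 and ZNF281 at −2.45 on the log2 scale. For the slope over 0 to 3 h they were ZNF579 at −0.78, ZNF48 at −0.71, ZNF317 at −0.66, ZNF747 at −0.56 and ZNF143 at −0.55 log2 units per h. With the replicate number as a block none of these slope differences was called. No group held more than 2 libraries, so no single library was tested as standing apart within its group.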

How the results depend on the processing

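Members called lower outnumbered those called higher in the first hour of both genotypes, from 1 to 3 h in A5-KO and for the 1 to 3 h difference under every alternative run. Over all genes the lower calls also outnumbered the higher ones there, in the main fit and under median-of-ratios scaling. In the first hour of WT these were 2904 lower and 221 higher, and 2214 and 1081 under that scaling. This order is therefore no trait of the members. Among results on groups 516 alternative values moved by no more than 1.5 times or 1 SD and 108 moved further. For single members 1234 stayed as they were, 136 no longer passed the test, 13 newly passed and 3 turned. With DESeq2, edgeR and median-of-ratios scaling respectively, members called higher numbered 2, 2 and 2 in the first hour in WT, 4, 1 and 1 from 1 to 3 h in WT, 5, 5 and 5 from 1 to 3 h in A5-KO, 3, 3 and 3 for the 1 to 3 h difference and 4, 4 and 4 for the A5-KO slope, and the slope difference was called lower in 27, 7 and 4. On recovered reads edgeR and DESeq2 called 135 and 139 members lower in the first hour in WT, 145 and 149 in A5-KO, and 89 and 101 for the 1 to 3 h difference. No share of all genes called by the same method or setting is given beside the member counts and shares of this section. They show only how the member calls depend on the setting. DESeq2 also called 1 member lower for the first-hour difference and 1 from 1 to 3 h in WT. Without the filter on low values the 1 to 3 h difference was called lower in 64 members, the first hour of A5-KO higher in 1, and the slope difference, PPs at 0 h and hILOs in 0. A pseudocount of 1 left 5 slope differences. Replicate numbers did not pair the libraries: over 28 pairs of PP groups the correlation of same-numbered deviations averaged −0.0021 (−0.348 to 0.252), and in hILOs it was −0.0129. With replicate number as a block the slope difference was called in 0 members, the 1 to 3 h difference in 95 and hILOs in 2, and no other count moved by over 1.5 times.

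The choice of time points mattered most. From 0 and 1 h, 0 to 2 h, and 0 and 3 h, the WT slope was called lower in 159, 141 and 131 members, and the slope difference in 0, 0 and 126. The shares of all genes called under these fits are not given, so the counts show the effect of the setting and not a trait of the members. The WT slope was called higher in 1 member over 0 to 2 h, and the A5-KO slope in 6 from 0 and 1 h and 2 from 0 and 3 h. From 0 and 1 h alone the slope differences of ZNF579, ZNF48 and ZNF317 turned to 0.62, 0.082 and 0.18. The median half-life in WT was 1.25 h from 0 and 1 h and 4.95 h from 0 and 3 h, and 2.42 to 4.42 h from single replicates. In A5-KO it was 1.18 h, 2.00 h and 1.63 to 1.75 h, 1.87 h with a pseudocount of 1, 2.17 h with median-of-ratios scaling and 1.62 h over members falling in both genotypes. The hILO median was 8.10 to 8.67 TPM from single WT libraries, 7.58 to 7.78 TPM from single A5-KO libraries and, rescaled, 7.94 TPM in A5-KO.

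Other member limits changed small shares. With a mean of at least 1 CPM, 1.36% were called higher in the first hour of A5-KO, 0.272% lower for the WT slope, 3.54% lower for the slope difference, 0.545% lower and 0.817% higher at 0 h and 2.36% lower in hILOs. With at least 10 CPM the shares were 3.62% higher in the first hour of A5-KO, 0.725% higher from 1 to 3 h in A5-KO and 0.725% higher at 0 h. With at least 5 CPM at 0 h they were 0.334% lower for the WT slope, 0.669% lower and 1.00% higher at 0 h and 2.08% lower in hILOs. Under 10% shared exon bases left 1.17% higher in the first hour of A5-KO. With the 3 genes left out by name, 0.881% were lower from 1 to 3 h in WT, 0.881% lower for the WT slope, 0.881% higher for the slope difference, 0.881% higher for the 1 to 3 h difference and 1.32% lower at 0 h.

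Leaving out 1 library at a time, the lone library of its group being taken to vary like the others, gave 89 to 159 members lower in the first hour of WT (89 without replicate 1 at 0 h) and 100 to 173 in A5-KO (100 without replicate 1 at 0 h), with 0 to 6 higher. From 1 to 3 h it gave 57 to 128 lower (57 without replicate 2 at 3 h) and 0 to 2 higher in A5-KO, 0 to 5 higher in WT, and 54 to 128 lower and 0 to 1 higher for the difference. The slope difference ranged over 0 to 45, with 44 and 45 without WT replicate 1 at 0 h and at 2 h, and 0 to 4 in each of the other 14 omissions. At 0 h 1 to 2 members were higher, and in hILOs 0 were lower in every omission. The causes were not tested. With 2 libraries a group and no depth for the TPM, small differences were not detectable.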
